A study of Mus musculus with 11 samples.

Results

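The peaks described here are those of the transcription factors (TFs) SOX2, POU5F1 and POU3F1 that lay at gene promoters in mouse epiblast stem cells (EpiSCs). A peak was counted as a promoter peak when its midpoint lay within 500 bp of the transcription start site (TSS) of any transcript in the mm9 gene annotation, on chromosomes 1 to 19 and X. This rule selected 7464 of the 555198 peaks in the 6 lists of these factors, or 1.34% (95% exact interval 1.31 to 1.38%). They were thus selected on the deposited peak positions, and the number of promoter peaks and their distance from a TSS are descriptions. The overlap with ZIC2, the base composition, the motifs and the identity of the genes were not used by the rule.

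The study mapped 5 TFs by ChIP-seq in cultured EpiSCs of strain 129/Sv, grown without feeder cells in medium that held activin at 20 ng/ml and Fgf2 at 10 ng/ml. In the activin-free culture, activin was withdrawn 18 h before harvest. In every culture the mapped TF was supplied from a transiently transfected pCAGGS plasmid that joined it to BLRP, a peptide that the BirA ligase from the same plasmid tagged with biotin, and chromatin was pulled down with streptavidin. The peaks are therefore those of the tagged protein, made in addition to the cells' own, and each factor was profiled in 1 library per culture. The 6 groups used for the promoter peaks were EpiSC SOX2, EpiSC POU5F1, EpiSC POU3F1 and the 3 activin-free counterparts, and the ZIC2 and OTX2 lists of each culture served for overlaps. With 1 library per group no difference has a replicate error, no p-value was computed, and a difference between cultures compares those libraries. The deposited lists hold no reads, so the depth behind each list is unknown, and the intervals given cover counting error only. The lists hold no expression values, so the identity of the cells could not be checked against marker genes.

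SOX2 is an HMG-box protein that binds short sites of the ACAATGG type in the minor groove, and in pluripotent cells it acts together with POU5F1 (OCT4), a POU-domain factor. POU3F1 (OCT6) belongs to the same POU class, is produced in the post-implantation epiblast and anterior neural plate, and recognises the same octamer sequence as POU5F1. ZIC2 is a zinc finger protein that prefers G+C-rich sequence. Many mammalian promoters are CpG islands, regions of high G+C content in which the CpG dinucleotide has been retained, whereas promoters of tissue-restricted genes such as olfactory receptors are often A+T-rich and poor in CpG.

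The promoter peaks differed in sequence by factor, and 9 windows of 201 bp centred on peak midpoints are shown as examples. Where a window was picked by gene for a SOX site, octamer or alternating run, only peaks holding it were eligible. Its presence in such a window was therefore fixed in advance. All are mm9 sequence on the strand of the nearest transcript, read 5′ to 3′. The SOX2 windows come from Phc1, which encodes a Polycomb subunit, Sox6, which encodes a SOX family member, Mobp, a myelin protein gene whose SOX2 promoter peak ranked second in each list, and Otx1, a head development gene chosen after its values were seen as a CpG-rich promoter with ZIC2. In the Phc1, Sox6 and Mobp windows, capitals mark SOX sites, searched for as ACAATGG or ACAAAGG on both strands. In the Otx1 window, capitals mark the 6 CpG dinucleotides.
Phc1, EpiSC SOX2, chr6:122290586-122290786, minus strand: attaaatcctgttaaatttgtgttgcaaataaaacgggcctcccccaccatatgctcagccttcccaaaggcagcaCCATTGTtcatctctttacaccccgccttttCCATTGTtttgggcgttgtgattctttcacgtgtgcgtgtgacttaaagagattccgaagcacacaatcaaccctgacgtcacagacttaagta
Sox6, activin-free SOX2, chr7:122968566-122968766, minus strand: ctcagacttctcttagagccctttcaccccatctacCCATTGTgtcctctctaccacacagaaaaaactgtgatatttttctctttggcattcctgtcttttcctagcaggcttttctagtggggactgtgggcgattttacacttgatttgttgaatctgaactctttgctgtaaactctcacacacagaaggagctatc
Mobp, activin-free SOX2, chr9:120058679-120058879, plus strand: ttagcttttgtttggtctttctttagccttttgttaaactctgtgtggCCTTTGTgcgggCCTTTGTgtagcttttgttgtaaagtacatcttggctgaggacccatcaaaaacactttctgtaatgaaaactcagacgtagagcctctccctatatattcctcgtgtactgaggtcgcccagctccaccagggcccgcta
Otx1, activin-free SOX2, chr11:21903114-21903314, minus strand: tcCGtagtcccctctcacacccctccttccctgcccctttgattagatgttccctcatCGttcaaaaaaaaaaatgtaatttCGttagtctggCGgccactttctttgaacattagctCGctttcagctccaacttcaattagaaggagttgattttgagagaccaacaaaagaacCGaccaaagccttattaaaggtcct
The Phc1 and Mobp windows held 2 SOX sites each and the Sox6 window held 1. The activin-free Phc1 peak, with a score of 899, held no SOX site within 100 bp of its midpoint.

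The POU windows show the octamer at Pou2f1, the gene of the octamer factor OCT1, at Foxr2, a forkhead gene on the X chromosome, and at Gm16799, which had a POU5F1 score at the ceiling of the scale in both cultures. Gm11011 stands for the promoter peaks over alternating purine-pyrimidine sequence. 1700012B15Rik was chosen after its values were seen, for the highest activin-free POU3F1 score among CpG-rich promoter peaks that overlapped ZIC2. For this choice 1 chromosome was left out. Capitals mark octamers, searched for as ATGCAAAT or ATGCATAT on both strands, except at Gm11011, where they mark alternating purine-pyrimidine runs of at least 20 bp. ATGCATAT itself alternates and can lie inside such a run.
Pou2f1, EpiSC POU5F1, chr1:167865315-167865515, minus strand: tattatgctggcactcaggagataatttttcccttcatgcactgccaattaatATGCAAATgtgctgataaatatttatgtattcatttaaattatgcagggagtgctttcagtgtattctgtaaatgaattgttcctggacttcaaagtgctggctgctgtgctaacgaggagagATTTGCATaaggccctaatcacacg
Foxr2, EpiSC POU5F1, chrX:149561647-149561847, plus strand: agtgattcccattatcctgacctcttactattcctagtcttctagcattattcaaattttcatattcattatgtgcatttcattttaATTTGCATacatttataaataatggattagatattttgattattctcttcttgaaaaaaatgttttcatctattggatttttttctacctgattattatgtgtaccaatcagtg
Gm16799, EpiSC POU5F1, chr7:29856108-29856308, plus strand: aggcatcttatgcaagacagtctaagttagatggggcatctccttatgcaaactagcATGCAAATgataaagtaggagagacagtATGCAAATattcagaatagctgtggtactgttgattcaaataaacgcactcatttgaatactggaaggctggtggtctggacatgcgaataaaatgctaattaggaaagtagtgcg
Gm11011, EpiSC POU5F1, chr2:169413293-169413493, minus strand: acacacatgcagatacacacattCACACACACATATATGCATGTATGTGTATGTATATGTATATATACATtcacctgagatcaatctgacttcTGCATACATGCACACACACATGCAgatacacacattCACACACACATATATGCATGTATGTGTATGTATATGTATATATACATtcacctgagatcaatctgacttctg
1700012B15Rik, activin-free POU3F1, chr12:3236108-3236308, plus strand: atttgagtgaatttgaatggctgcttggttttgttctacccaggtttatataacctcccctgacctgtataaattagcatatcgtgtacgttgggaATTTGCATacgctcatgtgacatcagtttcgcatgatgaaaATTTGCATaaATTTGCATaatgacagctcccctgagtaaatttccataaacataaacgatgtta
The windows of Pou2f1 and Gm16799 held 2 octamers each, that of Foxr2 held 1 and that of 1700012B15Rik held 3, whereas the Gm11011 window held 3 alternating runs.

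SOX2 was the factor most often found at promoters, in both cultures. In the EpiSC lists, 1153 of 63672 SOX2 peaks were promoter peaks (1.81%, 1.71 to 1.92%), against 671 of 62387 POU5F1 peaks (1.08%, 0.996 to 1.16%) and 968 of 112687 POU3F1 peaks (0.859%, 0.806 to 0.915%). In the activin-free lists, SOX2 had 2202 of 87781 peaks (2.51%, 2.41 to 2.61%), while POU5F1 had 1391 of 126751 (1.10%, 1.04 to 1.16%) and POU3F1 had 1079 of 101920 (1.06%, 0.997 to 1.12%). All these shares lay far below that of ZIC2, which had 13.9% of its EpiSC peaks and 15.3% of its activin-free peaks at promoters, and below that of OTX2, at 4.51% and 3.22%. The 6 lists differ in length, and the activin-free POU5F1 list is the longest.

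Promoter peaks of the EpiSC lists lay at 1144 genes for SOX2 (3.07% of the 37252 annotated genes), 684 for POU5F1 (1.84%) and 940 for POU3F1 (2.52%). In the activin-free lists they lay at 2287 genes for SOX2 (6.14%), 1355 for POU5F1 (3.64%) and 1095 for POU3F1 (2.94%). Together 4567 genes (12.3%) had a promoter peak of at least 1 of the 6 lists, among them 3322 of 22350 protein-coding genes (14.9%). By factor, the protein-coding genes numbered 873 for SOX2 (3.91%), 443 for POU5F1 (1.98%) and 622 for POU3F1 (2.78%) in EpiSCs, and 1865 (8.34%), 886 (3.96%) and 783 (3.50%) in the activin-free culture. SOX2 promoter peaks were at a protein-coding gene in 77.8% (EpiSC) and 83.9% (activin-free) of cases, compared with 67.4% and 67.6% for POU5F1 and 70.0% and 74.4% for POU3F1. The remainder lay at pseudogenes, at immunoglobulin gene segments and at genes of non-coding RNAs.

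At most of these genes a single factor was found. In EpiSCs, 994 genes had SOX2 alone, 427 POU5F1 alone and 653 POU3F1 alone, whereas 181 had both POU factors without SOX2 and 32 had all 3 factors. SOX2 with POU5F1 was found at 44 genes and SOX2 with POU3F1 at 74. In the activin-free lists, 1907 genes had SOX2 alone, 840 POU5F1 alone and 532 POU3F1 alone. Both POU factors without SOX2 were found at 298 genes, SOX2 with POU5F1 at 115, SOX2 with POU3F1 at 163 and all 3 factors at 102. ZIC2 lay at some TSS of 62.4% of the genes with SOX2 alone in EpiSCs, 44.5% of those with POU5F1 alone and 31.4% of those with POU3F1 alone, compared with 42.0% of all genes. In the activin-free culture the shares were 70.4%, 38.1% and 49.2%, compared with 41.9% of all genes. At the level of peaks, 41.1% of EpiSC POU5F1 promoter peaks overlapped a POU3F1 peak (51.8% of the POU5F1 peaks away from TSSs). Only 5.98% of EpiSC SOX2 promoter peaks overlapped a POU5F1 peak (8.04% away from TSSs) and 9.63% a POU3F1 peak (17.8%). Each of these overlaps was thus less frequent at promoters than away from TSSs. In contrast, 10.4% of EpiSC POU5F1 promoter peaks overlapped a SOX2 peak (8.00% away from TSSs). In both cultures the POU factors thus shared promoters with each other at more genes than either shared with SOX2. The EpiSC peaks away from TSSs had the same order, so it is not particular to promoters.

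With the lists as deposited, the cultures shared most EpiSC promoters but a smaller part of the activin-free ones. Of the genes with a SOX2 promoter peak, 788 were found in both cultures, which is 68.9% of the EpiSC genes and 34.5% of the activin-free genes. For POU5F1 the shared genes numbered 542 (79.2% and 40.0%) and for POU3F1 577 (61.4% and 52.7%). Counted by peaks, 72.5% of EpiSC SOX2 promoter peaks overlapped a SOX2 peak of the activin-free list (77.6% of all peaks in that list), as did 96.6% for POU5F1 (98.3%) and 77.5% for POU3F1 (82.6%). In the other direction the shares were 39.4% for SOX2 (55.9% of all peaks), 44.2% for POU5F1 (47.1%) and 63.9% for POU3F1 (86.8%). In each list the promoter peaks were shared between cultures less often than the peaks as a whole. The difference was greatest for activin-free POU3F1. With only the 60000 best-scoring peaks of each list kept, which both makes the lists equally long and leaves out low scores, an alternative chosen after seeing the data, the shares were 61.0% of EpiSC and 54.0% of activin-free promoter peaks for SOX2, 77.5% and 79.3% for POU5F1, and 80.1% and 78.8% for POU3F1. For both POU factors the shares of the 2 cultures then lay within each other's 95% intervals. With all peaks of score 100 or more kept, the POU3F1 shares were 76.9% and 81.2% and the POU5F1 shares 98.1% and 37.1%.

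ZIC2 was present at a part of the promoter peaks that ranged from 4.65% to 56.8%, depending on factor and culture. In EpiSCs it overlapped 461 of 1153 SOX2 promoter peaks (40.0%, 37.1 to 42.9%), 152 of 671 POU5F1 promoter peaks (22.7%, 19.5 to 26.0%) and 45 of 968 POU3F1 promoter peaks (4.65%, 3.41 to 6.17%). Over all peaks of those lists, ZIC2 overlapped 5.27%, 5.26% and 1.27%. In the activin-free culture it overlapped 1250 of 2202 SOX2 promoter peaks (56.8%, 54.7 to 58.8%), 225 of 1391 for POU5F1 (16.2%, 14.3 to 18.2%) and 312 of 1079 for POU3F1 (28.9%, 26.2 to 31.7%), against 6.09%, 3.48% and 2.02% of all peaks in those lists. Promoter peaks thus had ZIC2 several times as often as the lists they came from.

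Promoters as such are rich in ZIC2, so the same overlap was counted for windows placed on every annotated TSS, each as wide as the median promoter peak of the list. Such windows overlapped ZIC2 at 55.5% of TSSs for EpiSC SOX2, 56.5% for EpiSC POU5F1 and 56.6% for EpiSC POU3F1, and at 53.0%, 54.1% and 54.3% for the activin-free lists in the same order. Activin-free SOX2 promoter peaks had a share slightly above that of TSSs in general. In the other 5 lists ZIC2 was found at promoter peaks less often than in these TSS windows, with the widest gap for EpiSC POU3F1, 4.65% against 56.6%. Windows were centred on the TSS, near which ZIC2 was densest, whereas promoter peak midpoints could lie up to 500 bp away and were mostly upstream. A gene with several TSSs was counted at each of them. What this difference in placement contributes to the gaps was not tested.

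**Figure D1:**
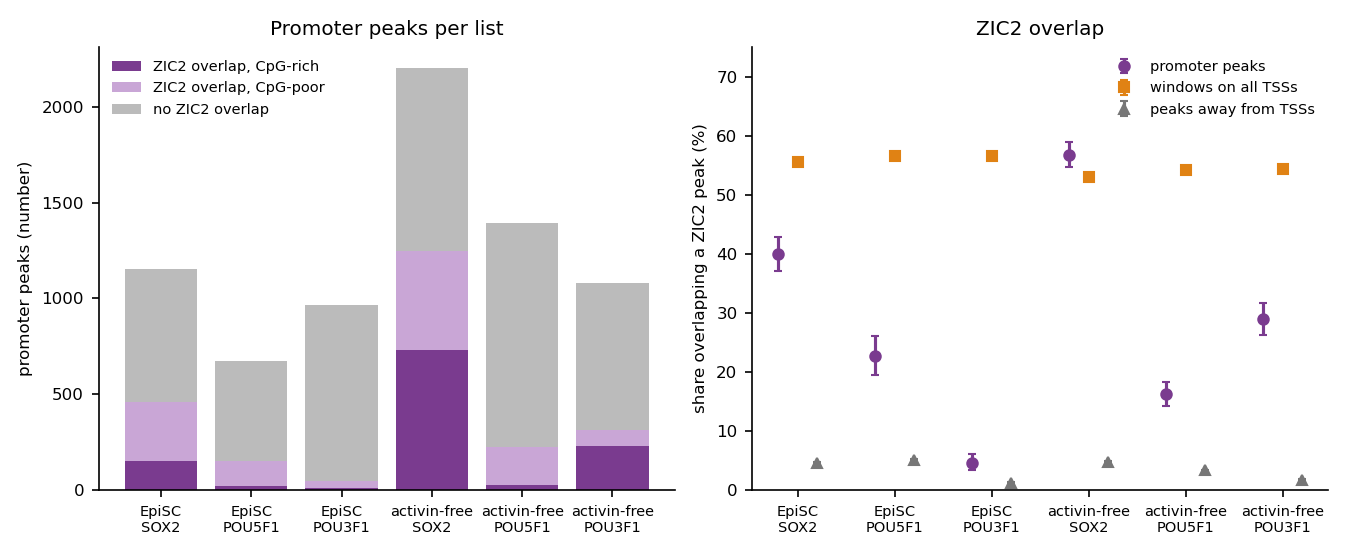
The left panel shows the number of promoter peaks in each list, divided into those that overlap a ZIC2 peak of the same culture at CpG-rich or CpG-poor sequence and those that do not. The right panel shows the share (%) overlapping ZIC2 for promoter peaks (circles), windows of the median promoter peak width on all TSSs (squares) and the peaks of the list away from TSSs (triangles), with 95% exact intervals that cover counting error only. Activin-free SOX2 has the largest ZIC2 share, 56.8%, and EpiSC POU3F1 the smallest, 4.65%.

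Promoter peaks with ZIC2 had a higher median G+C than those without in each list. In EpiSCs it was 49.7% with ZIC2 and 39.8% without for SOX2, 47.0% and 37.8% for POU5F1, and 44.3% and 34.8% for POU3F1. In the activin-free culture it was 53.7% and 40.3%, 45.6% and 36.9%, and 57.1% and 34.7%. A promoter peak was called CpG-rich by the 1001 bp at its midpoint. These had to have at least 50% G+C and an observed over expected CpG ratio of at least 0.6. For TSSs the 1001 bp were centred on the TSS, and 33.5% of all annotated TSSs were CpG-rich. Among the promoter peaks, 13.4% of EpiSC SOX2, 3.43% of EpiSC POU5F1 and 1.34% of EpiSC POU3F1 peaks were CpG-rich, and 34.1%, 2.08% and 21.5% of activin-free SOX2, POU5F1 and POU3F1 peaks. Median G+C was 42.8%, 39.7% and 35.0% in the EpiSC lists and 47.9%, 38.0% and 36.9% in the activin-free lists, compared with 52.5% at all TSSs. Promoters carrying the POU factors were thus A+T-rich for the most part.

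ZIC2 overlapped nearly all CpG-rich promoter peaks, whichever factor was mapped. The share was 98.1% of 155 for EpiSC SOX2, 87.0% of 23 for EpiSC POU5F1 and 100% of 13 for EpiSC POU3F1, and 97.2% of 751, 93.1% of 29 and 99.6% of 232 for the activin-free lists. CpG-rich TSS windows overlapped ZIC2 at 96.6% (EpiSC SOX2 width) and 96.2% (activin-free SOX2 width), so ZIC2 is the rule at such promoters with or without the other factors. Differences between factors were found at CpG-poor promoters. There ZIC2 overlapped 31.0% (28.1 to 33.9%) of EpiSC SOX2, 20.4% (17.3 to 23.7%) of EpiSC POU5F1 and 3.35% (2.30 to 4.70%) of EpiSC POU3F1 promoter peaks, against 34.8%, 36.3% and 36.5% of CpG-poor TSS windows. In the activin-free lists the CpG-poor shares were 35.8% (33.4 to 38.4%) for SOX2, 14.5% (12.7 to 16.5%) for POU5F1 and 9.56% (7.67 to 11.7%) for POU3F1, against 31.3%, 32.9% and 33.1% of CpG-poor TSS windows. Promoters with the POU factors thus had ZIC2 less often than CpG-poor promoters in general, whereas those with SOX2 had it slightly less often in EpiSCs and slightly more often in the activin-free culture.

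Seen from ZIC2, the other factors were rare at its promoter peaks. Of 16987 ZIC2 promoter peaks in EpiSCs, 410 (2.41%) overlapped a SOX2 promoter peak, 114 (0.671%) a POU5F1 promoter peak and 38 (0.224%) a POU3F1 promoter peak. Of 16673 in the activin-free culture, 1177 (7.06%) overlapped SOX2, 191 (1.15%) POU5F1 and 297 (1.78%) POU3F1. OTX2, the other factor mapped, overlapped 34.3% of EpiSC SOX2 promoter peaks (12.3% of all peaks in the list), 16.8% for EpiSC POU5F1 (7.86%) and 11.6% for EpiSC POU3F1 (6.38%). In the activin-free lists SOX2 had 34.2% (16.7% of all peaks), POU5F1 16.6% (10.7%) and POU3F1 23.3% (12.9%).

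The score of a peak, a measure of its statistical significance with 50 as the lowest value, differed between promoter peaks with and without ZIC2. For activin-free POU3F1 the median score was 62.7 with ZIC2 and 158 without, and for activin-free SOX2 it was 75.5 with and 108 without. EpiSC SOX2 (77.1 and 92.8) and EpiSC POU3F1 (104 and 155) showed the same order. POU5F1 did not, with medians of 114 and 115 in EpiSCs and of 211 and 177 in the activin-free culture. When activin-free POU3F1 promoter peaks were divided by score into 4 parts of equal size, ZIC2 overlapped 58.9% of the lowest part, then 40.4% and 10.7%, and 5.58% of the highest. For activin-free SOX2 the parts had 69.1%, 63.8%, 56.8% and 37.3%. ZIC2 was therefore mostly found at the promoter peaks of these 2 lists that had low scores. With only peaks of score 100 or more kept in every list, ZIC2 overlapped 8.17% of activin-free POU3F1 promoter peaks in place of 28.9%, and keeping the 60000 best-scoring peaks per list gave 5.43%. For EpiSC POU3F1 the latter gave 1.42% in place of 4.65%, and score 100 gave 3.06%. Other alternatives raised these shares. For activin-free POU3F1 the share was 45.4% within 250 bp, 46.2% at protein-coding TSSs and 47.0% for peaks under 1000 bp. For EpiSC POU3F1 it was 8.00% at protein-coding TSSs. For EpiSC SOX2, score 100 gave 25.2% in place of 40.0%, and for activin-free SOX2 37.8% in place of 56.8%.

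**Figure D2:**
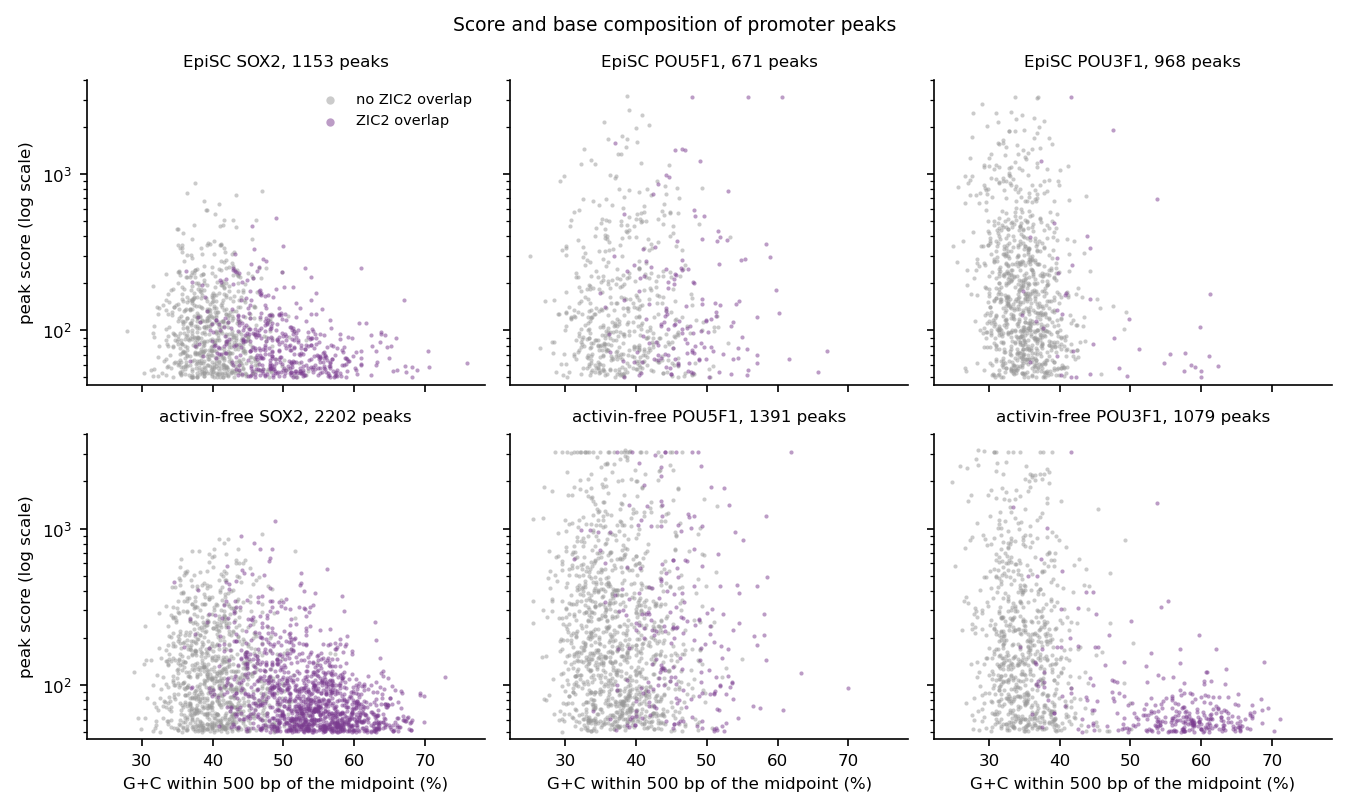
Each point is a promoter peak, with the G+C content (%) of the sequence within 500 bp of its midpoint on the horizontal axis and its score on a log scale on the vertical axis, in 1 panel per list. Purple points overlap a ZIC2 peak of the same culture and grey points do not, and the purple points of the activin-free SOX2 and POU3F1 lists gather at high G+C content and low scores.

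Many of the SOX2 and POU3F1 promoter peaks found in the activin-free culture alone were CpG-rich, namely 631 of 1335 (47.3%) and 220 of 389 (56.6%), where 33.5% of all TSSs were, and most of these had low scores. For POU5F1 it was 14 of 776 (1.80%). Of the 751 CpG-rich activin-free SOX2 promoter peaks, 120 (16.0%) overlapped a SOX2 peak of the EpiSC list, and the other 631 had a median score of 66.7, with 533 of them (84.5%) under 100. Of the 232 CpG-rich activin-free POU3F1 promoter peaks, 12 overlapped an EpiSC POU3F1 peak, and the other 220 had a median score of 60.2, with 205 (93.2%) under 100. In EpiSCs, ZIC2 was called at 614 of those 631 SOX2 sites (97.3%, 95.7 to 98.4%) and at 215 of those 220 POU3F1 sites (97.7%, 94.8 to 99.3%). These shares were near those of CpG-rich TSS windows in EpiSCs, 96.6% (EpiSC SOX2 width) and 96.7% (EpiSC POU3F1 width). Without ZIC2, 651 of 767 activin-free POU3F1 promoter peaks (84.9%) were shared with EpiSCs, whereas 39 of 312 (12.5%) with ZIC2 were. The depth of the libraries is unknown, so a difference in culture and a difference in library depth or enrichment cannot be told apart here.

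Position relative to the TSS also differed between these factors and ZIC2. ZIC2 promoter peaks were centred just downstream, with 21.9% of midpoints in EpiSCs and 23.0% in the activin-free culture between 0 and 100 bp after the TSS. SOX2 and POU promoter peaks lay upstream, in 61.9% of EpiSC SOX2, 59.0% of EpiSC POU5F1 and 60.8% of EpiSC POU3F1 cases, compared with 35.3% for ZIC2. In the activin-free culture, SOX2 was upstream in 67.2%, POU5F1 in 59.2% and POU3F1 in 65.4% of cases, compared with 36.5% for ZIC2. The 100 bp directly before the TSS held 11.9% of EpiSC SOX2 promoter peaks and 19.1% of activin-free ones, and for POU3F1 9.30% and 18.3%. For POU5F1 the shares were 8.35% and 8.34%, and its midpoints were sparsest from 0 to 100 bp after the TSS in EpiSCs (5.51%) and in the next 100 bp in the activin-free culture (5.90%).

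**Figure D3:**
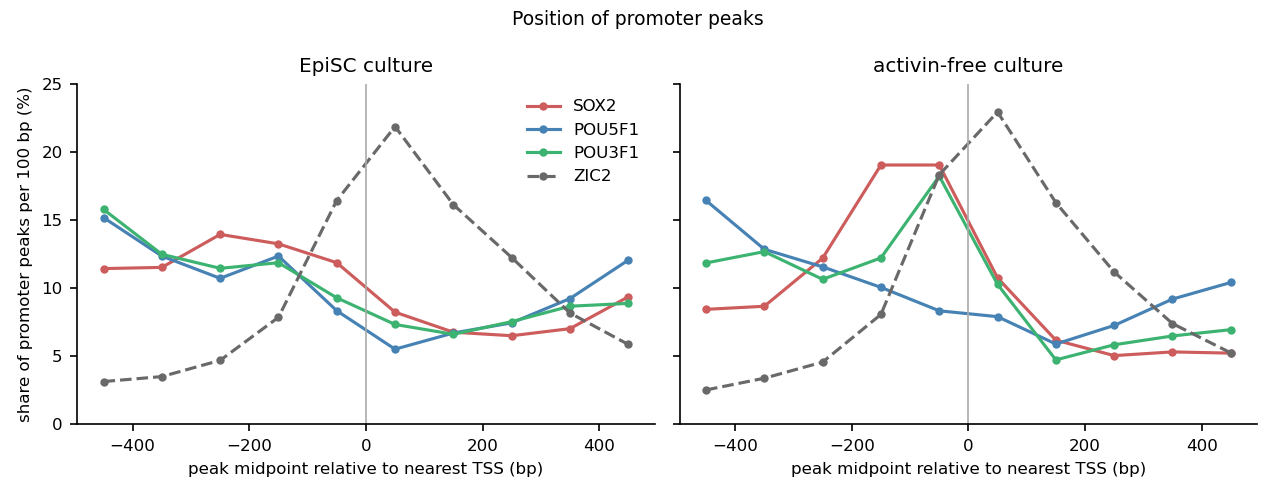
The lines show the share (%) of promoter peaks of each factor with a midpoint in each 100 bp bin from 500 bp before to 500 bp after the nearest TSS, in EpiSCs on the left and in the activin-free culture on the right. ZIC2 (dashed) is highest just after the TSS, at 21.9% and 23.0%, whereas activin-free SOX2 and POU3F1 are highest before it, at 19.1% and 18.3% in the last bin.

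Many promoter peaks lay at alternative TSSs inside a gene. The outermost TSS of a gene made up 42.9% of all distinct TSSs, and it was the site of 58.5% of EpiSC SOX2, 55.0% of EpiSC POU5F1 and 54.6% of EpiSC POU3F1 promoter peaks. In the activin-free lists it held 71.4%, 56.4% and 64.7%. ZIC2 was more frequent at outermost TSSs in each list. For EpiSC SOX2 it overlapped 51.3% of promoter peaks at outermost TSSs and 24.1% at internal ones, for activin-free SOX2 68.0% and 28.7%, and for activin-free POU3F1 39.7% and 9.19%. For POU5F1 the contrast was smaller, 24.7% and 20.2% in EpiSCs and 18.7% and 12.9% in the activin-free culture.

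Protein-coding genes that possess a CpG-rich TSS often carried the promoter peak at another TSS. Of 255 such genes with an EpiSC POU5F1 promoter peak, 204 (80.0%) had it only at other TSSs of the gene, as did 287 of 310 (92.6%) for EpiSC POU3F1, 391 of 476 (82.1%) for activin-free POU5F1 and 234 of 507 (46.2%) for activin-free POU3F1. For SOX2 the numbers were 338 of 585 (57.8%) in EpiSCs and 369 of 1341 (27.5%) in the activin-free culture. Pou2f1 is an example. Its POU5F1 peak, with a score of 772 in EpiSCs and 2018 in the activin-free culture, lay before a TSS at position 167865070 on chromosome 1, with its midpoint 345 bp away in EpiSCs, while ZIC2 peaks of score 2226 and 3100 covered the TSS at 167932740. Fgf2, which encodes the growth factor added to the medium, had POU5F1 (161 and 505) at a TSS at 37279677 on chromosome 3 and ZIC2 (1753 and 2708) at 37247575.

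The octamer was about as frequent in the promoter peaks as in all peaks of each list. It was present within 100 bp of the midpoint in 18.6% of EpiSC POU5F1 promoter peaks (18.6% of all peaks in the list), 9.19% for EpiSC POU3F1 (8.84%), 12.9% for activin-free POU5F1 (13.6%) and 7.51% for activin-free POU3F1 (9.36%). For SOX2 it was present in 2.86% of promoter peaks in both cultures (3.05% and 3.46% of all peaks). Windows of the same 201 bp on all TSSs held it in 1.57% of cases. The octamers shown for Pou2f1 and Gm16799 are thus of a kind that a minority of POU promoter peaks held, and these letters do not cover degenerate forms of the site.

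The SOX site was present in 25.8% (23.3 to 28.4%) of EpiSC SOX2 promoter peaks (20.5% of all peaks) and in 17.6% of activin-free ones (19.1%), compared with 5.51% of TSS windows. In activin-free SOX2 it was found in 21.7% of CpG-rich promoter peaks shared with EpiSCs and in 8.87% of those absent from the EpiSC list. In the POU lists it was found in 7.60% of EpiSC POU5F1 (6.26% of all peaks), 6.71% of EpiSC POU3F1 (6.58%), 7.26% of activin-free POU5F1 (6.23%) and 5.19% of activin-free POU3F1 promoter peaks (6.34%). Alternating purine-pyrimidine runs were present in 25.9% of EpiSC POU5F1 (29.6% of all peaks) and 19.1% of activin-free POU5F1 promoter peaks (21.5%), compared with 1.45% of TSS windows. POU3F1 had them in 3.31% of EpiSC and 3.34% of activin-free promoter peaks (4.16% and 5.05% of all peaks), and SOX2 in 0.434% and 0.863% (0.658% and 0.924%). The runs shown for Gm11011 therefore stand for a class that POU5F1 promoter peaks held several times as often as those of the other factors.

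Each of the 10 highest-scoring SOX2 promoter peaks in either culture overlapped a SOX2 peak of the other culture. Gm5665 had the highest EpiSC score, 874, and 717 in the activin-free culture. Mobp scored 776 and 922, Cltc, the clathrin heavy chain gene, 675 and 715, Lrrtm2, which encodes a synaptic adhesion protein, 730 and 599, and Vit, which encodes vitrin, 560 and 663. None of these SOX2 peaks overlapped ZIC2. Hist4h4, a histone H4 gene, scored 524 and then 1109, the highest activin-free value, and overlapped ZIC2 in both cultures. Its peak extended from 136751993 to 136753897 on chromosome 6 in the activin-free list. Phc1 scored 333 and 899, also with ZIC2, and Myo10, an unconventional myosin gene, 319 and 738 without ZIC2. Nedd9, a cell adhesion scaffold gene, scored 741 in the activin-free list with ZIC2 present, at a position where the EpiSC list also had a SOX2 peak.

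The highest EpiSC POU5F1 score was at a microRNA locus. Mir669e, in a cluster of microRNA genes on chromosome 2, lay in a POU5F1 peak of 4969 bp with score 3166 in EpiSCs and of score 3100 in the activin-free culture. Mir669j of the same cluster lay in a peak of 15795 bp with score 2565, and the midpoint of a peak this wide can lie far from its summit. Gm16799 scored 3100 in both cultures, Gm10029 2399 and 3100, Gm11011 2158 and 3100, and Mir297-2 2077 and 3100. A score of 3100 acts as a ceiling. It was the score of 3 EpiSC and 34 activin-free POU5F1 promoter peaks, and 1 and 2 further peaks lay above it. The activin-free list was led by Adam18 (3181, and 719 in EpiSCs), a sperm membrane protein gene, and Rod1 (3126 and 437), which encodes an RNA-binding protein. Med13, which encodes a subunit of the Mediator kinase module, scored 3100 and 588 in the same order. Rasa1, a Ras GTPase-activating protein gene, scored 3100 and 1456, and Mctp1 3100 and 1160. ZIC2 did not overlap the peaks of these 5 genes.

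POU3F1 promoter peaks of high score were wide, A+T-rich and mostly free of ZIC2. Gtdc1, a glycosyltransferase-like gene, had a peak of 6401 bp in EpiSCs with 37.0% G+C and score 3100, and a POU3F1 score of 3100 in the activin-free culture. Csrnp3 scored 3100 in both cultures in a peak of 6814 bp that, unlike the others, reached a ZIC2 peak. Foxp2, a forkhead gene, scored 3100 in EpiSCs, with an overlapping activin-free peak whose midpoint fell outside the 500 bp window. Chi3l3 and Chi3l4, chitinase-like genes, shared a peak that scored 3089 and 2200. Gnat3, the taste transducin gene, scored 2293 and 3100, Olfr1158, an olfactory receptor gene, 2388 and 3100, and Omd, the osteomodulin gene, 1577 and 3116. Glcci1 scored 1885 and 3100. Etv1, an ETS factor gene, had an activin-free peak of score 3100 at a TSS at 39510096 on chromosome 12, and peaks of 804 and 1107 at the TSS at 39563985.

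Genes of pluripotency had mostly low scores, and SOX2 was the factor most often found. Of 23 annotated genes shared by pluripotent states, 9 had a promoter peak of at least 1 list, where 12.3% of all genes did. The share of all genes, used here and below, includes non-coding genes, and among protein-coding genes it was 14.9%. SOX2 lay at Jarid2 (116 in EpiSCs and 96.1 in the activin-free culture) and at Sall4, where the highest scores (68.2 and 96.7) were at different TSSs, each with ZIC2, and at Rif1 (182 in EpiSCs) without it. At Zscan10 (128) SOX2 was found in EpiSCs only, and at Lin28a (83.1) and Zfp281 (59.5) in the activin-free list only. The peaks at all 3 overlapped ZIC2, though at Zfp281 no ZIC2 midpoint lay within 500 bp of a TSS. Of 19 naive pluripotency genes, Nr5a2 (96.7) and Tbx3 (55.0) had activin-free SOX2, with ZIC2. None of 14 germ cell genes had a promoter peak. Of 25 post-implantation epiblast genes, 5 did. The highest score was that of SOX2 at Cdh2, the N-cadherin gene, with 293 in EpiSCs and 525 in the activin-free culture at a TSS at 16828578 on chromosome 18, whereas ZIC2 covered the TSS at 16966971.

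The few Notch and Wnt pathway genes with a promoter peak had SOX2. Of 21 Notch pathway genes, 4 had a promoter peak where 12.3% of all genes did, in each case a SOX2 peak that overlapped ZIC2. These were Jag1 (63.2 in EpiSCs and 252 in the activin-free culture) and Dll1 (69.6 and 65.9), which encode ligands, Notch1 (192.6, activin-free only), which encodes a receptor, and Nrarp (94.3 and 57.1), a feedback inhibitor gene and target. Of 33 Wnt pathway genes, 4 had a promoter peak (12.1%, against 12.3% of all genes), again a SOX2 peak that overlapped ZIC2. They were the receptor gene Fzd1 (66.7, EpiSC only), Apc (164 and 50.1) of the β-catenin destruction complex, the nuclear effector gene Tcf7l2 (55.9 and 74.0), and the target gene Sp5 (74.9 and 133). At Fzd1 and Sp5 no ZIC2 midpoint lay within 500 bp of a TSS in either culture. The same held at Jag1 in EpiSCs and at Nrarp in the activin-free culture. Sp5 was also the only one of 24 primitive streak and endoderm genes with a promoter peak.

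Of 23 FGF pathway genes, 6 (26.1%) had a promoter peak, where 12.3% of all genes did. SOX2 was at 4 (17.4%) in EpiSCs and 5 (21.7%) in the activin-free culture, where 3.07% and 6.14% of all genes had it. SOX2 peaks overlapped ZIC2 at Dusp6 (81.9 and 198), Spry4 (60.0 and 93.8) and Spred2 (103 and 89.5), which encode inhibitors of the ERK cascade. No ZIC2 midpoint lay within 500 bp of a TSS at Spred2 in either culture, or at Dusp6 in EpiSCs. Spry4 and Spred2 lie beyond the 4 genes per list that the naming rule allows and were chosen after their values were seen. The ETS factor gene Etv4 had SOX2 (113) in the activin-free list only. The receptor gene Fgfr1 had SOX2 (123 and 427) without ZIC2 at a TSS at 26624126 on chromosome 8, while ZIC2 (1701 and 3118) lay at the TSS at 26629791. The ligand gene Fgf2, described above, had POU5F1 alone.

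Promoter peaks were found in both TGFβ branches. Of 27 Nodal and activin pathway genes, 2 (7.41%) had a promoter peak, and of 22 BMP pathway genes 4 (18.2%), where 12.3% of all genes did. Inhba, which encodes the activin A subunit, had SOX2 (169) in EpiSCs and POU5F1 (94.5) in the activin-free culture. Smad4, the common mediator, had SOX2 (58.5), POU5F1 (78.5) and POU3F1 (68.8) in the activin-free lists alone. The 4 BMP pathway genes were the type I receptor genes Acvr1, Bmpr1a and Bmpr1b and Smad5, an effector of BMP receptors. Acvr1 had POU5F1 (52.7 and 109), Bmpr1a POU3F1 (158 and 96.5) and Bmpr1b SOX2 (74.2 and 157) with ZIC2. Bmpr1a (87.5) and Bmpr1b (55.2) also had activin-free POU5F1. In the activin-free culture POU5F1 thus lay at all 4 genes (18.2%), where 3.64% of all genes had it. At the 3 receptor genes these peaks lay at other TSSs than ZIC2. For Acvr1 the POU5F1 peak was at the TSS at 58368683 on chromosome 2, and ZIC2 at 58419568. For Bmpr1a the TSSs were 35273742 and 35315714 on chromosome 14. At Bmpr1b POU5F1 lay at 141645228 on chromosome 3, and ZIC2 at 141594487 and 141832177. All scores at Smad4 were under 100, and the EpiSC lists had no promoter peak there.

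Transcription factor lists had promoter peaks at shares on either side of the 12.3% of all genes. Of 30 neural plate genes, 3 (10.0%) had promoter peaks, with SOX2 at each. Otx1 scored 158 and 246 with ZIC2, Lhx2, a forebrain LIM-homeobox gene, 65.5 and 80.3 without ZIC2 at the peak, and Otx2 195 and 276 without ZIC2. Of 16 POU factor genes, 5 (31.3%) had promoter peaks, and POU5F1 lay at 4 of the 16 in EpiSCs and 3 in the activin-free culture, where 1.84% and 3.64% of all genes had it. These include Pou5f1 itself, where reads from the plasmid cannot be told apart from those of the gene. Among the others were Pou2f3 (64.9 and 87.7) and Pou6f1 (73.4, EpiSC only), both overlapping ZIC2. Of 19 SOX factor genes, 2 (10.5%) had promoter peaks. Sox6 had SOX2 in both cultures (508 and 601) without ZIC2, and Sox4 had activin-free POU3F1 (52.9) with ZIC2. Hoxa9 (activin-free SOX2, 74.6) was the only one of 42 Hox genes (2.38%). Of 45 forkhead genes, 3 (6.67%) had promoter peaks, including Foxp1 with EpiSC POU5F1 (179) and ZIC2.

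Of 24 cell cycle genes, 3 had promoter peaks (12.5%, against 12.3% of all genes and 14.9% of protein-coding genes). Pcna, the sliding clamp gene, had POU5F1 (50.1 and 277) and activin-free SOX2 (73.1), Rb1 had POU3F1 (265 and 321) and activin-free SOX2 (134), and Cdk4 had activin-free SOX2 (53.2) with ZIC2. Among DNA methylation genes, Mbd2, which encodes a methyl-CpG binding protein, had POU5F1 (384 and 1860) and POU3F1 (576 and 216) at an alternative TSS at 70752909 on chromosome 18, where ZIC2 was not called, while ZIC2 (643 and 887) lay at the TSSs near 70727946.

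Gene families split by factor. Of 1251 olfactory receptor genes, 101 (8.07%) had an EpiSC POU3F1 promoter peak and 81 (6.47%) an activin-free one, where 2.52% and 2.94% of all genes did. POU5F1 was at 20 (1.60%) in EpiSCs and at 82 (6.55%) in the activin-free culture, where 1.84% and 3.64% of all genes had it. SOX2 was below its share of all genes, at 23 (1.84%) and 38 (3.04%). The vomeronasal receptor genes, 437 in number, were similar, with EpiSC POU3F1 at 34 (7.78%) and activin-free POU5F1 at 38 (8.70%). ZIC2 was called at 16 olfactory receptor genes (1.28%) in EpiSCs, at 14 (1.12%) in the activin-free culture and at 0 vomeronasal receptor genes, where 42.0% and 41.9% of all genes had it. These families are expressed in sensory neurons, and their members share sequence, so reads could have been assigned among copies.

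Histone and zinc finger genes had SOX2 more often than genes in general in both lists. Of 70 replication-dependent histone genes, 7 (10.0%) had SOX2 in EpiSCs and 15 (21.4%) in the activin-free culture, where 3.07% and 6.14% of all genes did. Among protein-coding genes the SOX2 shares were 3.91% and 8.34%. ZIC2 was called at 7 and 13 of the histone genes with SOX2, and at 84.3% of all 70 histone genes in either culture. POU5F1 was at 1 (1.43%) and 2 (2.86%) histone genes, near its 1.84% and 3.64% of all genes, and POU3F1 was at 0, where 2.52% and 2.94% of all genes had it. Beside Hist4h4, SOX2 scored 169 and 436 at Hist1h4k and 327 in the activin-free list at Hist1h4j, and Hist1h3b had activin-free POU5F1 (284). Some of the histone genes share a promoter region and a peak. Of 79 cytoplasmic ribosomal protein genes, SOX2 lay at 3 (3.80%) in EpiSCs and 10 (12.7%) in the activin-free culture, so that the EpiSC share was near that of all genes. Their highest SOX2 scores were those of Rpl3 (94.2 and 169) and Rpl29 (158, activin-free only). Of 376 zinc finger genes, SOX2 lay at 29 (7.71%) and 58 (15.4%), with ZIC2 called at 20 and 44 of these and at 73.4% and 72.3% of all 376.

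MicroRNA genes had POU5F1 and POU3F1 more often, and SOX2 less often, than genes in general in EpiSCs. Of 1576 microRNA genes, 80 (5.08%) had POU5F1 and 84 (5.33%) POU3F1 in EpiSCs, and 23 (1.46%) had SOX2, against 1.84%, 2.52% and 3.07% of all genes. Some clustered microRNA genes share a peak, as at Mir669e, so the genes are not independent. Of 1422 snRNA genes, 33 (2.32%) had POU5F1 in EpiSCs and 90 (6.33%) in the activin-free culture, against 1.84% and 3.64% of all genes, so that the EpiSC share was near that of all genes. SOX2 lay at 32 (2.25%) and 50 (3.52%) snRNA genes, against 3.07% and 6.14% of all genes. LincRNA genes had SOX2 at 43 of 1273 (3.38%) in EpiSCs and 85 (6.68%) in the activin-free culture, close to its share of all genes. POU3F1 was at 10 (0.786%) and 19 (1.49%), below its 2.52% and 2.94% of all genes. Of 25 clustered protocadherin genes, which encode neuronal surface proteins, 9 (36.0%) had a promoter peak of any list, where 12.3% of all genes did. The counts were 7 of 103 (6.80%) for cytochrome P450 genes and 5 of 104 (4.81%) for keratin and keratin-associated genes, below that share. Cyp7a1, the gene for the rate-limiting enzyme of bile acid synthesis, had POU5F1 (92.0 and 680).

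**Figure D4:**
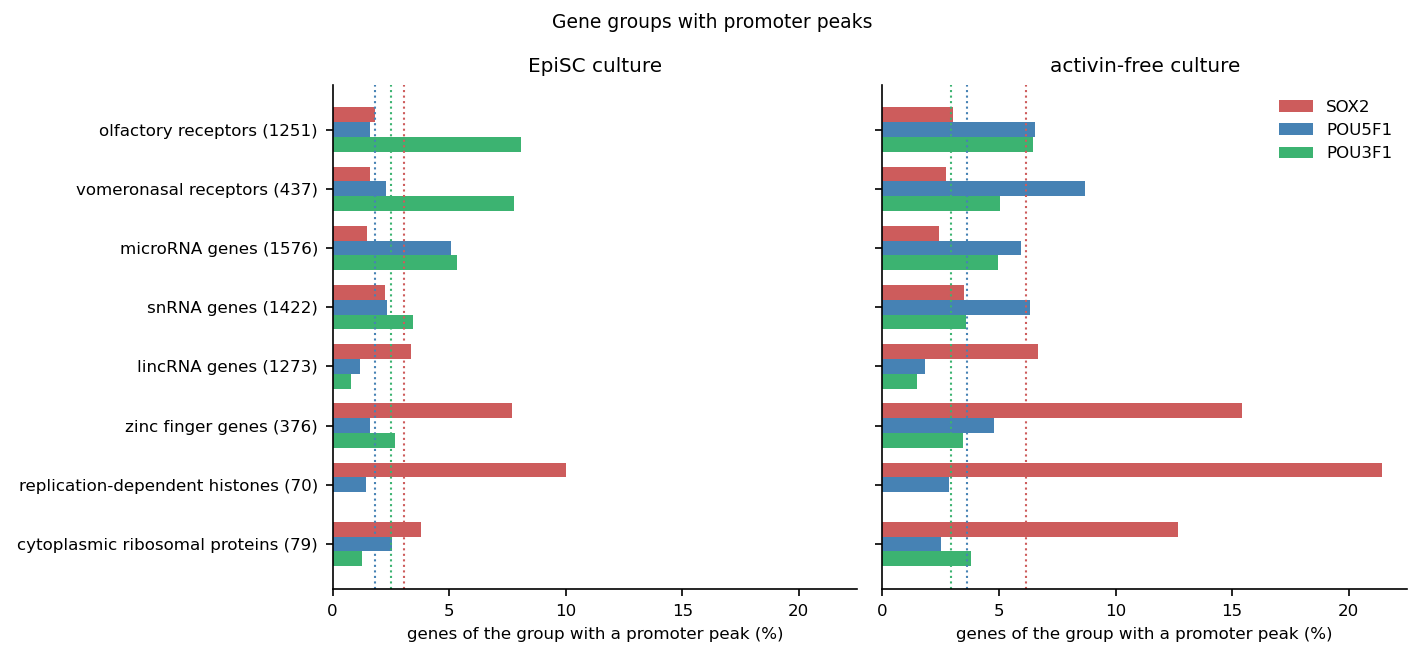
Bars show the share (%) of the genes in each of 8 groups that had a promoter peak of SOX2, POU5F1 or POU3F1, in EpiSCs on the left and in the activin-free culture on the right, with the number of annotated genes in parentheses. Dotted lines mark the share of all 37252 genes for each factor. EpiSC POU3F1 reaches 8.07% of olfactory receptor genes, and activin-free SOX2 reaches 21.4% of replication-dependent histone genes.

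At 10 genes the same TSS had a promoter peak of all 6 lists, and none of those peaks overlapped ZIC2. Exoc5, U7 and Vmn2r-ps128 among them are outside the naming rule and were chosen after their values were seen. SOX2 scored under 250 at each of the 10 genes. At Lin28b, which encodes an RNA-binding protein that blocks let-7 maturation, SOX2 scored 75.9 in EpiSCs and 236 in the activin-free culture, POU5F1 53.2 and 130, and POU3F1 196 and 191, at an alternative TSS at 45190007 on chromosome 10, where the POU5F1 peaks of the cultures did not overlap. ZIC2 (553 and 671) lay at the TSS at 45206201. At Smad5, SOX2 scored 86.7 and 133, POU5F1 474 and 2028, and POU3F1 138 and 145, at the TSS at 56834378 on chromosome 13, and ZIC2 (229 and 193) lay at the TSS at 56804371.

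At Foxr2, SOX2 scored 51.4 and 173, POU5F1 377 and 1646, and POU3F1 1335 and 3100, while ZIC2 (1208 and 3004) lay at the TSS at 149553329 on the X chromosome. At Defb41, a β-defensin gene, and the neighbouring Gm15386, SOX2 scored 91.4 and 144, POU5F1 463 and 1857, and POU3F1 2458 and 3100. At 2610034M16Rik, SOX2 scored 63.8 and 73.6, POU5F1 1238 and 3100, and POU3F1 1881 and 2505. At Pcdhb7, a clustered protocadherin gene, SOX2 scored 88.2 and 72.0, POU5F1 195 and 569, and POU3F1 257 and 226. Exoc5, which encodes a subunit of the exocyst, had SOX2 at 56.8 and 59.0 and POU3F1 at 1081 and 872. Scores grow with enrichment and with library depth, so they rank peaks within a list rather than between lists.

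**Figure D5:**
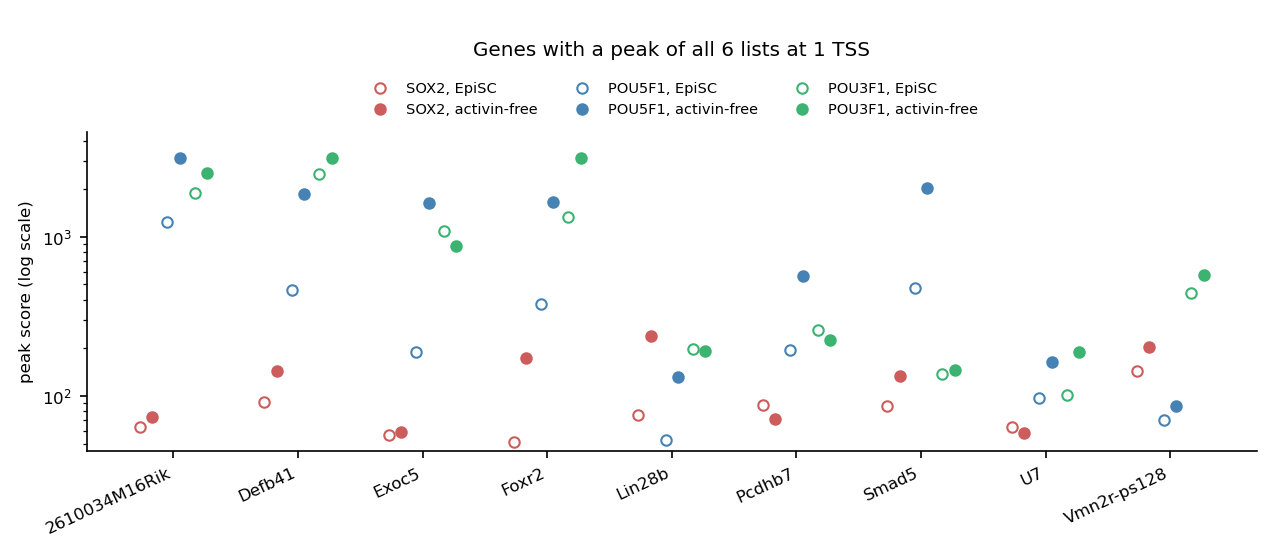
The score (log scale) of the promoter peak of each factor is shown for 9 of the 10 genes with peaks of all 6 lists at the same TSS. Gm15386 shares the peaks of Defb41 and is not drawn. Open circles are EpiSC values and filled circles activin-free values. SOX2 is under 250 at each gene.

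Among the genes of the 5 factors, Pou5f1 and Otx2 had promoter peaks, and Sox2, Pou3f1 and Zic2 had none. Pou5f1 had 2 EpiSC POU5F1 peaks, from 35642579 to 35643937 and from 35645788 to 35647747 on chromosome 17, and an activin-free peak from 35642736 to 35643566, each with score 3100 and each overlapping ZIC2. These peaks covered 447, 1183 and 447 bp of the 2256 exonic bp of Pou5f1. The transfected plasmid held a Pou5f1 coding sequence, so reads from the plasmid and from the gene cannot be told apart. At Otx2, SOX2 (195 and 276) and POU3F1 (74.4 and 60.7) lay before an alternative TSS at 49282547 on chromosome 14, without ZIC2 at the peaks, and OTX2 itself had peaks there of score 556 and 744.

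The values at the edge of the 500 bp window are given as a description. Between 401 and 500 bp from the TSS there were from 183 to 374 peaks per list, of which 4.60% (EpiSC POU3F1) to 39.6% (EpiSC SOX2) overlapped ZIC2. Just outside, between 501 and 600 bp, there were from 156 to 332 peaks, of which 8.66% (EpiSC POU3F1) to 37.0% (EpiSC SOX2) did.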

How the data were processed

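BLRP-tagged ZIC2, OTX2, SOX2, POU5F1 and POU3F1 were mapped by ChIP-seq in EpiSCs and in EpiSCs freed from activin, with 1 library per factor and culture, and the input control was not used here. Bowtie2 was used by the authors for alignment to mm9, and MACS for peak calling against the input with a band width of 150 bp. The deposited score of each peak is the significance given by MACS on a scale of −10 log10 of its p-value, with 50 as the lowest. All peaks on chromosomes 1 to 19 and X were used, and peaks elsewhere were left out. TSSs were those of the 95414 transcripts of the GENCODE mm9 annotation, with 86803 distinct positions. Overlap required 1 shared bp. For named genes, a promoter peak with ZIC2 is one that overlaps a ZIC2 peak of the same culture. In counts per gene or gene list, ZIC2 at a gene is a ZIC2 midpoint within 500 bp of a TSS. Shares have 95% Clopper-Pearson intervals. Members, 28 gene lists and thresholds were chosen with earlier results of these data known.

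Genes named were those of the 5 factors, those at the 10 highest-scoring promoter peaks per list, up to 20 with several factors at a TSS, and up to 4 per gene list by score, except 1 that is not reported here. There were 7 alternatives set in advance and 1 added later. The steps were tested on simulated data. Python 3.11.15, numpy 2.4.6, scipy 1.17.1, pandas 2.3.3, pysam 0.24.0 and matplotlib 3.10.9 were used.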

Additional observations from a re-analysis of the deposited data

How the results depend on the processing

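Leaving out peaks over the genes of the 5 factors left the pooled values of the 3 factors within their intervals. The ZIC2 share was 23.6% of EpiSC and 38.2% of activin-free promoter peaks, and the share found in both cultures 80.0% and 46.5%. Within 250 bp of a TSS there were 1288 EpiSC and 2555 activin-free promoter peaks in place of 2792 and 4672, and the activin-free shares were 48.4% (ZIC2) and 39.0% (both cultures). Within 1000 bp there were 6162 and 9199, with activin-free shares of 29.9% and 52.2%. With TSSs of protein-coding transcripts only, there were 1411 and 2791, ZIC2 overlapped 34.9% and 54.6%, and 78.4% and 38.5% were found in both cultures. With scores of at least 100, there were 1468 and 2435, ZIC2 overlapped 13.6% and 21.3%, and 82.5% and 48.7% were found in both. With peaks under 1000 bp, ZIC2 overlapped 29.4% and 47.8%, and 73.5% and 33.7% were found in both. Requiring at least 50% of the narrower peak to be shared gave ZIC2 at 16.8% and 32.1%. For POU5F1 alone this gave 13.1% in EpiSCs and 7.40% in the activin-free culture. The 60000 highest-scoring peaks of each list, chosen after seeing the data, gave 2145 EpiSC and 2277 activin-free promoter peaks (644 and 603 for POU5F1), ZIC2 at 20.8% and 27.0%, and 69.7% and 65.1% in both. Over the 3 factors together, the activin-free ZIC2 share was higher than the EpiSC share under each of these alternatives, but for POU5F1 alone it was lower under each, as it was with all peaks (22.7% in EpiSCs and 16.2% activin-free). No paired analysis was possible because each factor and culture had 1 library and the labels give no replicate numbers. The cause of these shifts was not tested. Peak lists without reads limit any comparison of weak peaks between libraries.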
